A study of Homo sapiens with 6 samples.

Results

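The genes described here encode subunits of the proteasome, with 3 factors that help to assemble its cap. They were the protein-coding genes named PSMA, PSMB, PSMC or PSMD followed by a number, with a mean of at least 0.1 RPKM (reads per kilobase of gene and per M reads, where M stands for mega) over the 6 libraries, without the immunoproteasome genes PSMB8 and PSMB9. The rule took 34 of the 57773 gene IDs in the table, 14 of the core particle (PSMA and PSMB) and 20 of the regulatory cap (PSMC and PSMD). It used the level over all libraries, and not the difference between the groups. Of 36 genes matched by name, PSMA8 was listed at 0 in every library and PSMB11 had 0 to 1 read per library, and both were left out. PSMB3 was not matched to an ID in the table. All 34 members passed the filter on low values, which was the same as the rule, and were among the 19886 genes tested.

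RPE1 is an immortalised human cell line from the retinal pigment epithelium. One group of 3 libraries came from RPE1 cells given 2.5 µM Nutlin-3 for 24 h, and the other 3 came from cells given the solvent DMSO for 24 h. Both groups grew in DMEM with serum, and no genetic change was named for either. Nutlin-3 is a small molecule that blocks the binding of the ubiquitin ligase MDM2 to the transcription factor p53, so that p53 is no longer sent to the proteasome. Poly(A) RNA was sequenced, and the labels call the libraries triplicates without saying whether they came from separate cultures, so that the p-values speak only of the spread among these 6 libraries and may hold technical spread alone.

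The proteasome is the barrel-shaped protease that degrades most ubiquitin-tagged proteins of the cytosol and nucleus. Its core particle is a stack of outer rings of alpha subunits (PSMA), which gate the entry, and inner rings of beta subunits (PSMB), some of which carry the proteolytic sites. The cap has a base, whose ring of ATPases (PSMC) unfolds the substrate and pushes it into the core, and a lid of PSMD subunits that takes the ubiquitin off. In human cells the transcription factor NFE2L1 raises the transcription of the subunit genes together when the proteasome is inhibited.

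The 6 libraries held 27.9 to 40.3 M reads, recovered from the RPKM. CDKN1A, a p53 target gene that encodes the cell cycle inhibitor p21, was at 7.88, 8.38 and 8.81 RPKM in DMSO and at 57.8, 62.0 and 61.8 RPKM with Nutlin-3, and MDM2 rose to 366% of its DMSO level (limma adjusted p = 6.6e-05 and 6.75e-05), so the libraries matched their labels. DMSO replicate 1 stood apart from the other DMSO libraries. The chi-square per gene between it and the others was 3.93 and 4.74, against 1.91 between DMSO replicates 2 and 3 and 1.63 to 2.46 among the Nutlin-3 libraries, and 49.8 to 75.5 across the groups. It was the highest of the DMSO libraries for 30 of the 34 members, and values without it are given beside the results it touches. As markers of the pigment epithelium, RPE65, RLBP1, BEST1, TYR, TYRP1, PMEL and TTR each had a mean under 0.1 RPKM. MITF, another such marker, had a mean of 0.204 RPKM and 1383 to 1905 reads per library. Its log2 fold change was -0.02 (limma adjusted p = 0.792). The marker OTX2 and the keratins KRT7, KRT8 and KRT18 were also expressed. The keratins rose (KRT18 to 174% of DMSO) and OTX2 fell (to 81.9%), limma with Benjamini-Hochberg adjusted p = 0.000314 and 0.0333. Their part in the results was not tested.

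Proteasome transcripts changed little with Nutlin-3, as RPKM on the authors' library sizes. The recovered reads fell short of these sizes in every DMSO library and were close to them with Nutlin-3. In DMSO the sizes were 42.3, 29.8 and 32.4 M, against 40.3, 27.9 and 30.8 M recovered reads. With Nutlin-3 they were 31.6, 35.8 and 30.4 M, against 31.5, 36.2 and 30.9 M. Scaled to the recovered reads, the members would thus be lower with Nutlin-3, relative to DMSO, than given here. The shift would be about the same for every member, and not small beside the members' median change. This scaling was not tested. In such bulk samples, fewer cells of a type and less RNA per cell cannot be told apart. Of the 34 members, 7 fell and 0 rose in limma's test on log2(RPKM + 0.1) at an adjusted p under 0.05, and at an unadjusted p under 0.05, 3 core and 9 cap members were lower and 0 higher. Over all 19886 genes tested, 39.2% passed, of which 18.4% fell and 20.9% rose as shares of the genes tested. The share of members that fell, 20.6%, was near that background, while the count of 0 that rose stood beside a background of 20.9%. In the same test run with voom on the recovered reads, which kept the authors' library sizes, 13 members (38.2%) fell and 0 rose. The backgrounds of that run were 24.3% fallen and 26.0% risen over its 20733 genes. Among the 19886 genes of the main test, 21.7% fell in it. The members' median log2 fold change was -0.07, against 0.01 over all genes tested. It was 0.04 over the 9095 genes within the members' range of RPKM, of which 51.3% passed and 21.6% fell. As introns count in the length behind these RPKM, that range does not match genes by their reads. The 3 Nutlin-3 libraries lay wholly below the 3 DMSO libraries for 15 members and wholly above them for 0, where the shares of all genes were 25.7% and 27.6%. On the authors' library sizes the changes were small, and 33 of the 34 members had a log2 fold change under 0.25 in size. The 95% intervals of all 34 reached no lower than -0.46 (PSMC3) and no higher than 0.27 (PSMB10).

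**Figure D1:**
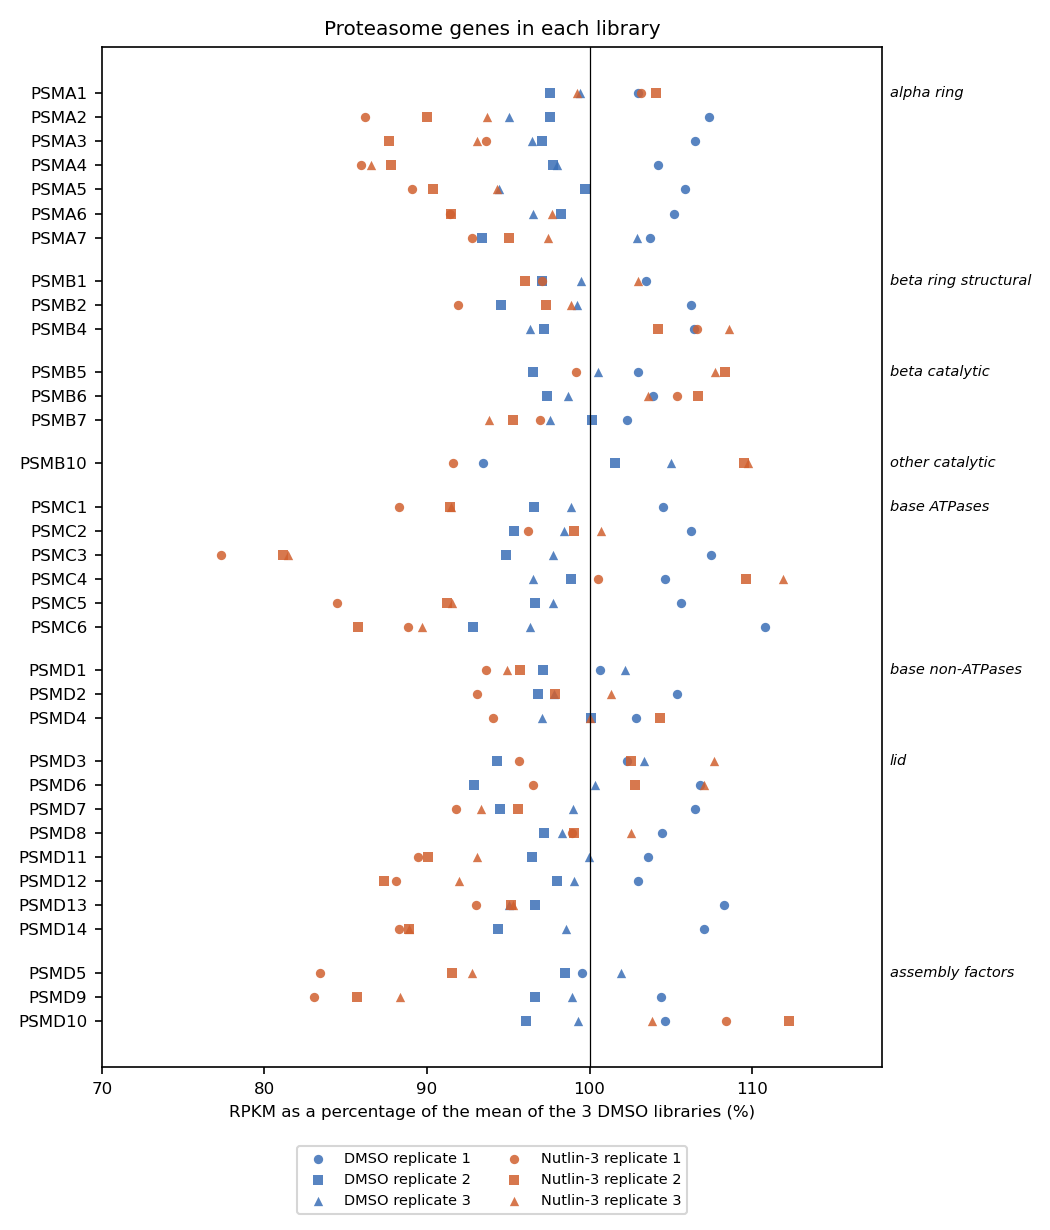
Each gene's RPKM in each of the 6 libraries (x axis, as a percentage of the mean of the 3 DMSO libraries), with genes on the y axis grouped by role, DMSO libraries in blue and Nutlin-3 libraries in orange, and the replicate shown by the shape. PSMC3 lies farthest to the left, with all 3 Nutlin-3 libraries below every DMSO library, and DMSO replicate 1 (blue circles) is the rightmost blue point for 30 of 34 genes.

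The members that fell were the alpha subunit PSMA4, the base ATPases PSMC1 and PSMC3, the lid subunits PSMD11 and PSMD12, and the assembly factors PSMD5 and PSMD9. The stretches of DNA before the start sites of PSMC3, PSMA4, PSMD9 and PSMD12, the members with the largest falls among those past the threshold, are shown from RefSeq (GRCh38.p14), 5′ to 3′ on the strand of the gene. They come from the 250 bases before a RefSeq start, cut where GENCODE 29 begins an exon. For PSMA4, which has several starts, the first was taken. Capitals mark matches, on either strand, to CGGAAG (the core of sites for ETS-type factors), CCAAT (the box bound by NF-Y), TGACNNNGC (the core of the antioxidant response element, which NFE2L1 binds) and TTTGAA (the core of the CHR element of cell cycle genes). These motifs were chosen with the sequences in view.
PSMC3, chr11:47426474-47426689, minus strand: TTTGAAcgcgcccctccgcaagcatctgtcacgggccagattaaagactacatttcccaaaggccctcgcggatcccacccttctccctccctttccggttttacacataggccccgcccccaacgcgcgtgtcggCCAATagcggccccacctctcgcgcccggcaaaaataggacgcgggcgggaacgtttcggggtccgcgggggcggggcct
PSMA4, chr15:78540155-78540404, plus strand: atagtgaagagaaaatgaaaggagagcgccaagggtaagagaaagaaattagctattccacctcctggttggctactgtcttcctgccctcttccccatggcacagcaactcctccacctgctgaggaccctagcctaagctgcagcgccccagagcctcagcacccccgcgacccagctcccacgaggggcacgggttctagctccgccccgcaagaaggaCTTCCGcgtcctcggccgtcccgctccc
PSMD9, chr12:121888540-121888730, plus strand: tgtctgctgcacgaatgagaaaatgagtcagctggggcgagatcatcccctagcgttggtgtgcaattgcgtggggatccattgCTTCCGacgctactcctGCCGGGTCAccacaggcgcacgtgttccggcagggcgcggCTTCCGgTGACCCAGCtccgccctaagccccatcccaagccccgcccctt
PSMD12, chr17:67366628-67366827, minus strand: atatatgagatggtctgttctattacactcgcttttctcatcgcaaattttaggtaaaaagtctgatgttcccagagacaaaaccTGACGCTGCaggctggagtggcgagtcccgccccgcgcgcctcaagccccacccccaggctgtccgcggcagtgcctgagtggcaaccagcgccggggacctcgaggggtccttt
The stretch of PSMC3 held TTTGAA and CCAAT, that of PSMA4 held 1 match to CGGAAG, that of PSMD9 held 2 matches each to CGGAAG and TGACNNNGC, and that of PSMD12 held 1 match to TGACNNNGC. RefSeq windows were found for 29 of the 34 members. Over the whole 250 bases, CGGAAG was in 17 of the 29 members (5 of 10 core, 12 of 19 cap) and in 19.4% of all 27305 genes with a window. The antioxidant response core TGACNNNGC was in 6 of 29 (PSMA4, PSMC5, PSMD3, PSMD12, PSMD5 and PSMD9), and in 13.2% of all genes. The match of PSMA4 lay before a later start than the one shown. CCAAT was in 14 of 29 members and 37.0% of all genes, and TTTGAA in 4 of 29 and 16.1%. Of the 7 members that fell, 4 held CGGAAG, 4 held TGACNNNGC, 2 held CCAAT and 2 held TTTGAA. A match is a description of the letters and no measurement of binding.

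The alpha ring held 7 members, of which 1 fell and 6 did not pass. PSMA4 (ENSG00000041357), an alpha subunit, was at 12.5, 11.8 and 11.8 RPKM in DMSO and 10.3, 10.6 and 10.4 RPKM with Nutlin-3. The groups did not overlap, and every Nutlin-3 library lay more than 1 RPKM below the lowest DMSO library. The mean went from 12.0 ± 0.441 to 10.4 ± 0.113 RPKM (SD, n = 3 each), a log2 fold change of -0.20 (SE 0.033, limma adjusted p = 0.00669). PSMA2, PSMA3, PSMA5, PSMA6 and PSMA7 had log2 fold changes between -0.15 and -0.07, and PSMA1 had 0.03. Of these, PSMA2, PSMA3 and PSMA5 passed as lower on the recovered reads (voom adjusted p = 0.00637, 0.0149 and 0.0107), and not on RPKM (limma adjusted p = 0.1004, 0.115 and 0.101). PSMA1, PSMA2 and PSMA6 overlap another same-strand gene over 24.7%, 14.6% and 14.1% of their exons, so reads of the neighbours may be among theirs.

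Among the beta subunits 0 of 7 members passed in either direction (limma). Of the 7, 0 passed on the recovered reads. PSMB5, PSMB6 and PSMB7 carry the chymotrypsin-like, caspase-like and trypsin-like sites of the constitutive proteasome. PSMB5 (ENSG00000100804) was at 5.79, 5.43 and 5.65 RPKM in DMSO and 5.58, 6.09 and 6.05 RPKM with Nutlin-3. The groups overlapped, with Nutlin-3 replicate 1 among the DMSO values, and the log2 fold change was 0.07 (95% interval -0.05 to 0.19). PSMB6 (ENSG00000142507) was at 31.3, 29.3 and 29.7 RPKM in DMSO and 31.7, 32.1 and 31.2 RPKM with Nutlin-3. Its groups overlapped only through DMSO replicate 1, and the log2 fold change was 0.07 (95% interval -0.01 to 0.16, limma adjusted p = 0.135). PSMB7 (ENSG00000136930) was at 1.73, 1.70 and 1.65 RPKM in DMSO and 1.64, 1.62 and 1.59 RPKM with Nutlin-3. The groups just failed to touch, with a log2 fold change of -0.06 (95% interval -0.14 to 0.01, adjusted p = 0.137). On the authors' library sizes, the intervals of these 3 genes left room for a change of at most 0.19 on the log2 scale in either direction.

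PSMB1, PSMB2 and PSMB4 are beta subunits without a proteolytic site. PSMB4 (ENSG00000159377) was at 51.5, 47.1 and 46.6 RPKM in DMSO and 51.6, 50.5 and 52.6 RPKM with Nutlin-3, a log2 fold change of 0.09 (SE 0.046, limma adjusted p = 0.179). DMSO replicate 1 lay among the Nutlin-3 values, and the other 2 DMSO libraries lay below all of them. Without DMSO replicate 1, PSMB4 and PSMB6 passed as higher (log2 fold change 0.14 and 0.10, limma adjusted p = 0.0230 and 0.0374), while under quantile normalization with all libraries the values were 0.01 and -0.03, and neither passed. PSMB1 and PSMB2 had log2 fold changes of -0.02 and -0.06. PSMB10 (ENSG00000205220) is the inducible catalytic subunit that replaces PSMB7 in the immunoproteasome. It had the fewest reads of the members, 391 to 534 per library, and was at 4.89, 5.31 and 5.49 RPKM in DMSO and 4.79, 5.72 and 5.74 RPKM with Nutlin-3. The groups overlapped, and the interval of its log2 fold change, -0.17 to 0.27, was the widest of all members. Another gene on its strand overlaps 34.8% of its exons.

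The base of the cap has 6 ATPases, of which 2 fell and 4 did not pass. PSMC3 (ENSG00000165916), one of the ATPases of the ring, was at 17.2, 15.2 and 15.6 RPKM in DMSO and 12.4, 12.97 and 13.02 RPKM with Nutlin-3. This was the largest fall of all members: every Nutlin-3 library lay more than 2 RPKM below the lowest DMSO library. The mean went from 16.0 ± 1.06 to 12.8 ± 0.371 RPKM (SD, n = 3 each), which is 80.0% of the DMSO level, with a log2 fold change of -0.32 (SE 0.055, limma adjusted p = 0.00804). Without DMSO replicate 1 it was -0.27 (adjusted p = 0.00920).

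PSMC1 (ENSG00000100764), another ATPase of the ring, was at 5.62, 5.19 and 5.31 RPKM in DMSO and 4.74, 4.91 and 4.92 RPKM with Nutlin-3. The groups did not overlap, with a log2 fold change of -0.14 (SE 0.038, limma adjusted p = 0.0332), and it did not pass in 6 alternatives, among them each with 1 library other than DMSO replicate 2 left out (adjusted p = 0.0529 to 0.114). The value is uncertain: 75.8% of the exon length of PSMC1 overlaps NRDE2 on the other strand, the use of strand in counting is not given in the sources used here, and its pseudogenes held reads equal to 47.6% of its own. One of them, PSMC1P1, itself fell to 92.0% of its DMSO level (limma adjusted p = 0.0304).

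The ATPase PSMC5 had a log2 fold change of -0.17 and just missed the threshold (limma adjusted p = 0.0534), and PSMC6 had -0.17 (adjusted p = 0.113). Both passed as lower on the recovered reads (voom adjusted p = 0.00182 and 0.00354). PSMC2 was at -0.02, and PSMC4 at 0.10 (limma adjusted p = 0.206). The 6 ATPases, which sit in 1 ring, thus had log2 fold changes from -0.32 to 0.10, each measured with 3 libraries a group.

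Of the other base subunits that the rule took, PSMD1, PSMD2 and PSMD4, 0 of 3 passed (limma, with 0 on the recovered reads). PSMD1 and PSMD2 are the large scaffold subunits of the base, and PSMD4 is a receptor for ubiquitin chains. PSMD4 (ENSG00000159352) was at 6.57, 6.39 and 6.20 RPKM in DMSO and 6.01, 6.66 and 6.39 RPKM with Nutlin-3. The groups lay across each other, with a log2 fold change of -0.01 (95% interval -0.13 to 0.11). PSMD2, with the most reads of the members (16020 to 24739 per library), was at -0.04, and PSMD1 at -0.07 (adjusted p = 0.0968). Both depended on the scaling: PSMD2 was at -0.11 and passed under quantile normalization (adjusted p = 0.0182), and PSMD1 was at -0.08 and passed under median-of-ratios scaling (adjusted p = 0.0484).

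Of the 8 lid subunits that the rule took, 2 fell and 6 did not pass. PSMD12 (ENSG00000197170), a structural subunit of the lid, was at 2.80, 2.67 and 2.69 RPKM in DMSO and 2.40, 2.38 and 2.50 RPKM with Nutlin-3. The groups did not overlap, and the log2 fold change was -0.16 (SE 0.033, limma adjusted p = 0.0153), though it did not pass without Nutlin-3 replicate 1 or 2 (adjusted p up to 0.0623 over 3 alternatives). PSMD11 (ENSG00000108671), also a structural subunit, was at 3.33, 3.10 and 3.22 RPKM in DMSO and 2.88, 2.90 and 3.00 RPKM with Nutlin-3. Its groups did not overlap either, with a log2 fold change of -0.13 (adjusted p = 0.0334), but it did not pass in 6 alternatives, among them each with 1 library other than DMSO replicate 2 left out (adjusted p = 0.0548 to 0.105). PSMD14 (ENSG00000115233), the metalloprotease that cuts ubiquitin chains off the substrate, was at 1.18, 1.04 and 1.08 RPKM in DMSO and 0.971, 0.978 and 0.978 RPKM with Nutlin-3. The groups did not overlap and the log2 fold change, -0.16 (95% interval -0.28 to -0.04), was as large as that of PSMD12, but the adjusted p of 0.0510 lay just outside the threshold, and on the recovered reads PSMD14 passed (voom adjusted p = 0.00114). PSMD3, PSMD6, PSMD7, PSMD8 and PSMD13 had log2 fold changes between -0.09 and 0.03. Of these, PSMD7 was at -0.15 and passed as lower under quantile normalization (adjusted p = 0.0241).

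PSMD5, PSMD9 and PSMD10 are not subunits of the finished proteasome but chaperones that bind the ATPases while the base is put together. PSMD9 (ENSG00000110801) was at 1.58, 1.46 and 1.497 RPKM in DMSO and 1.26, 1.30 and 1.34 RPKM with Nutlin-3. Every Nutlin-3 library lay below every DMSO library, and the mean went from 1.51 ± 0.0600 to 1.30 ± 0.0402 RPKM (SD, n = 3 each), a log2 fold change of -0.21 (SE 0.040, limma adjusted p = 0.0117). Genes on the same strand overlap 19.9% of the exons of PSMD9. PSMD5 (ENSG00000095261) was at 1.28, 1.26 and 1.31 RPKM in DMSO and 1.07, 1.17 and 1.19 RPKM with Nutlin-3. The groups did not overlap, with a log2 fold change of -0.15 (SE 0.045), but the adjusted p of 0.0474 was close to the threshold, and it did not pass with any 1 of the 6 libraries left out. PSMD10 (ENSG00000101843), also known as gankyrin, was at 5.23, 4.80 and 4.97 RPKM in DMSO and 5.42, 5.61 and 5.19 RPKM with Nutlin-3. The groups overlapped by 1 pair of values, and the log2 fold change of 0.11 (adjusted p = 0.115) was the highest of the members. Thus 2 of these 3 genes fell and PSMD10 did not pass. PAAF1, a base chaperone outside the rule for members, had a log2 fold change of -0.04 (adjusted p = 0.604).

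**Figure D2:**
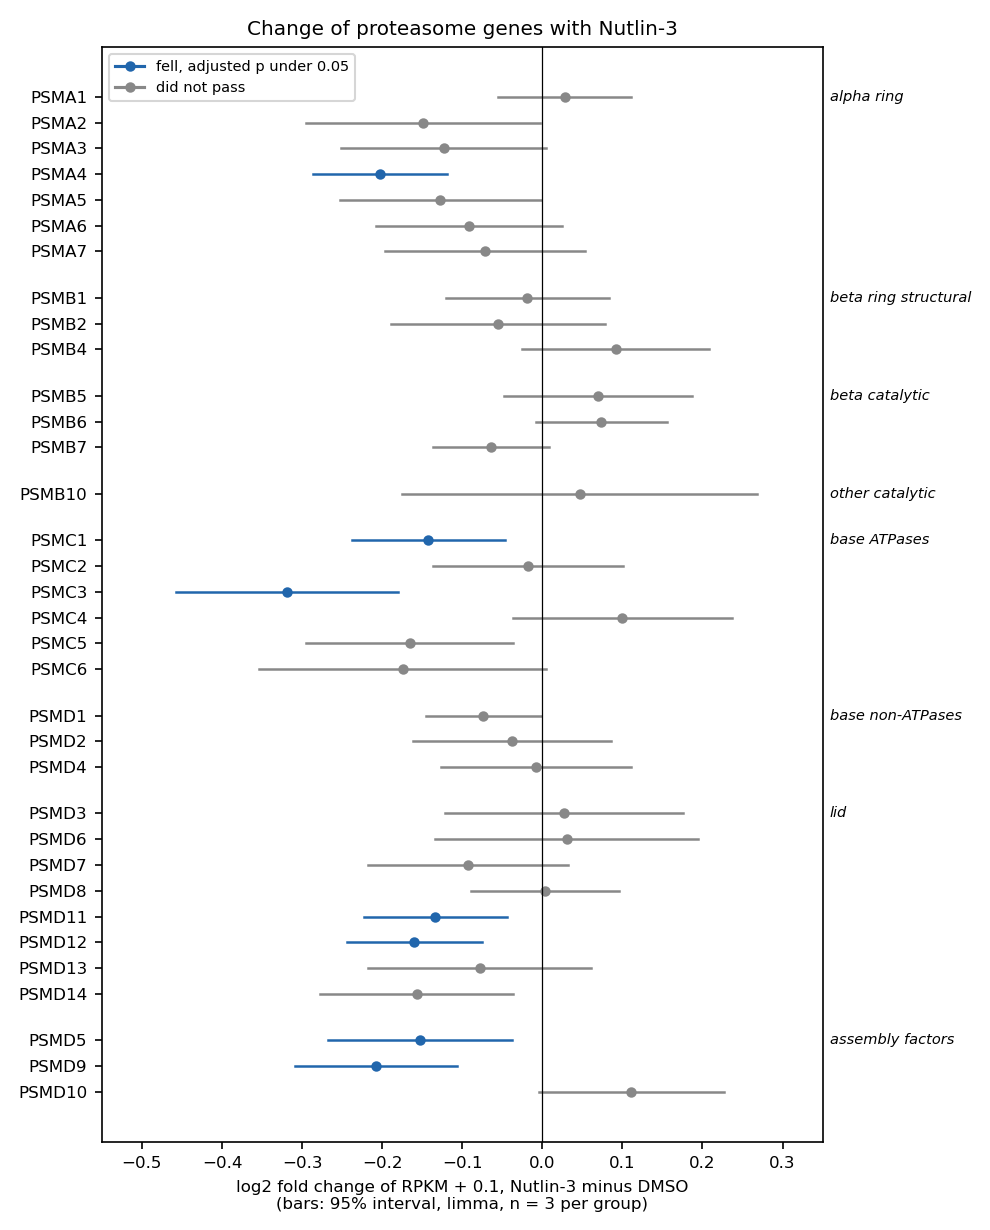
Log2 fold change of RPKM + 0.1 between 3 Nutlin-3 and 3 DMSO libraries (x axis) for each of the 34 genes, grouped by role, with points for the estimate and bars for the 95% interval from limma. The 7 genes that fell are in blue, with PSMC3 lowest at -0.32, and the 27 that did not pass are in grey.

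Core and cap were then set against each other. Of the core members, 1 of 14 fell (7.14%), and of the cap members 6 of 20 (30%), beside 18.4% of all genes tested. The difference between these shares was not tested. Without DMSO replicate 1, 3 core members passed (PSMA4 lower, PSMB4 and PSMB6 higher) and 3 cap members (PSMC3, PSMD9 and PSMD12, all lower), and on the recovered reads 4 of 14 core and 9 of 20 cap members fell. The median log2 fold change was -0.06 in the core, with a range of -0.20 to 0.09, and -0.09 in the cap, with a range of -0.32 to 0.11. Within the core the median was -0.12 over the 7 alpha subunits and 0.07 over the 3 constitutive catalytic subunits. As an average over the members, the log2 level of the core was 2.56, 2.48 and 2.49 in DMSO and 2.44, 2.47 and 2.50 with Nutlin-3, and that of the cap 2.50, 2.38 and 2.41 against 2.30, 2.36 and 2.37. Only the cap averages of the groups did not overlap, and by less than 0.01. Core minus cap, taken in each library, was 0.066, 0.0999 and 0.077 in DMSO and 0.132, 0.111 and 0.120 with Nutlin-3. The 3 Nutlin-3 libraries lay above the 3 DMSO libraries, with group means of 0.08 ± 0.017 and 0.12 ± 0.011 (SD, n = 3 each). The difference of 0.04 on the log2 scale was positive under each alternative run, from 0.03 to 0.05, and stayed at 0.04 without the 3 assembly factors. As the members were chosen with results of these data known, no p is given for it.

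**Figure D3:**
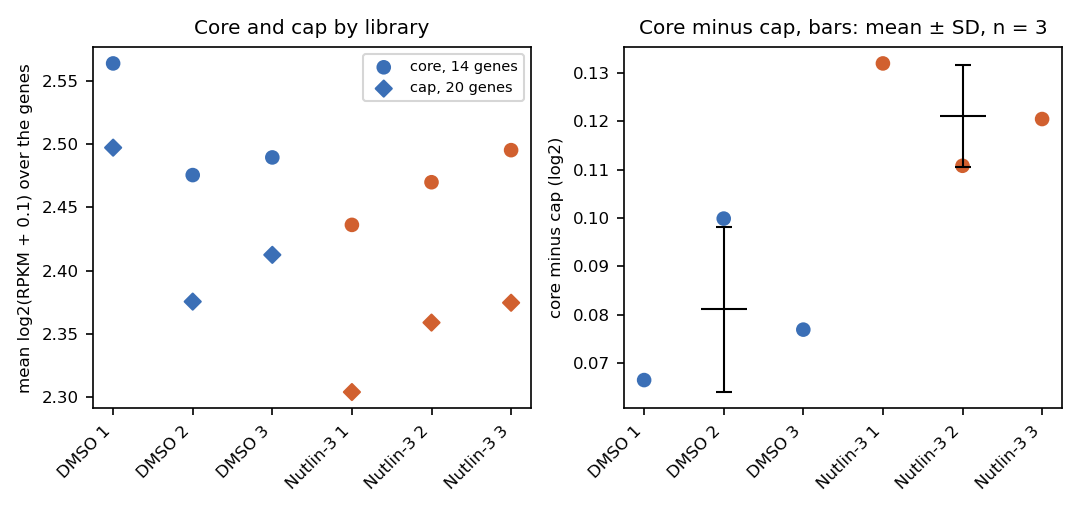
Left, the mean log2(RPKM + 0.1) over the 14 core genes (circles) and the 20 cap genes (diamonds) in each library, DMSO in blue and Nutlin-3 in orange; right, core minus cap in each library with the mean and SD of each group. Core minus cap lies between 0.066 and 0.0999 in DMSO and between 0.111 and 0.132 with Nutlin-3, and DMSO replicate 1 has the highest level of both core and cap.

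RPKM in the table were made with the whole span of a gene, introns included, so levels between genes were compared as reads per kilobase of the principal transcript and per M reads. On this scale the DMSO mean ran from 161 ± 7.54 for PSMD2 to 10.2 ± 0.180 for PSMD5 (SD, n = 3). PSMA7 (126), PSMB4 (121), PSMB1 (109) and PSMB7 (107) followed PSMD2, and neighbours among them differed by less than their SD except PSMD2 from PSMA7 and PSMB4 from PSMB1. The lowest after PSMD5 were PSMB10 (11.1), PSMD9 (16.1) and PSMD12 (17.7). The order depends on the transcript: PSMA4 was at 24.2 with its longest principal transcript and 97.4 with its shortest, and PSMD11 at 30.7 and 58.2.

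Other genes of the pathway were taken in 6 lists. Of their 46 genes, 10 rose and 9 fell (limma), against 8 risen and 12 fallen under quantile normalization. Their share called, 41.3%, was near the 39.2% of all genes, and their median log2 fold change was -0.01. Of 6 further assembly chaperones, PSMG1 to PSMG4 and POMP for the core and PAAF1 for the base, 3 fell, 0 rose (limma, with 0 on the recovered reads) and 3 did not pass. PSMG1, which forms with PSMG2 a platform for the alpha ring, was at 4.93, 4.36 and 4.47 RPKM in DMSO and 3.00, 3.08 and 3.07 RPKM with Nutlin-3. The groups lay far apart, and the mean of 4.59 ± 0.299 went to 3.05 ± 0.0437 RPKM (SD, n = 3 each), 66.4% of DMSO, with a log2 fold change of -0.57 (SE 0.051, limma adjusted p = 0.000885). PSMG3, a chaperone of the same step, was at 4.35, 4.04 and 3.89 RPKM in DMSO and 3.07, 3.27 and 3.33 RPKM with Nutlin-3, and fell (log2 fold change -0.33, adjusted p = 0.00682). PSMG2 fell to 84.6% of DMSO (adjusted p = 0.0303), a call lost in 6 alternatives, among them those without DMSO replicate 1 or 2 or Nutlin-3 replicate 1 or 2 (adjusted p = 0.0605 to 0.0933). POMP, which joins the beta subunits to the alpha ring and is then degraded, was at 3.997, 3.68 and 3.75 RPKM in DMSO and 4.03, 4.06 and 4.01 RPKM with Nutlin-3, higher in each Nutlin-3 library but not past the threshold (log2 fold change 0.08, adjusted p = 0.139).

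Among 13 proteins bound to the proteasome and shuttles that bring it substrates, 2 rose and 4 fell. UCHL5, a deubiquitinase held on the cap, was at 0.908, 0.836 and 0.852 RPKM in DMSO and 0.530, 0.552 and 0.600 RPKM with Nutlin-3. It fell to 64.8% of DMSO with no overlap (log2 fold change -0.55, SE 0.053, limma adjusted p = 0.00120). AKIRIN2, which brings proteasomes into the nucleus, fell to 83.8% (adjusted p = 0.0108). The shuttle factor UBQLN2 rose to 120% (adjusted p = 0.0262), a call lost in 5 alternatives, among them those without DMSO replicate 1 or 2 or Nutlin-3 replicate 2 or 3 (adjusted p = 0.0571 to 0.0852). The proteasome-binding zinc finger protein ZFAND5 rose to 112% (adjusted p = 0.00571), and missed the threshold under quantile normalization (0.0521). Of the other members of the list that fell, UBQLN4 did not pass in 8 alternatives and ECPAS in 6.

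Of 5 genes for alternative activators, which can take the place of the cap, and for an inhibitor, PSME4 rose to 109% (log2 fold change 0.12, limma adjusted p = 0.0152), though not without Nutlin-3 replicate 1 or 3 (adjusted p up to 0.0824 over 3 alternatives), 0 fell, and PSME3 and the inhibitor PSMF1 had log2 fold changes of -0.02 and 0.04 (adjusted p = 0.808 and 0.446).

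Of the 9 regulators of proteasome genes, 3 rose, 0 fell and 6 did not pass. Of these 6, DDI2 just missed the threshold (log2 fold change -0.12, limma adjusted p = 0.0538). It passed as lower on the recovered reads (voom adjusted p = 0.0113). NFE2L1, the transcription factor that acts on subunit genes, was at 22.3, 22.5 and 22.5 RPKM in DMSO and 25.8, 26.8 and 26.9 RPKM with Nutlin-3. All 3 Nutlin-3 libraries lay above DMSO, with a log2 fold change of 0.24 (SE 0.024, limma adjusted p = 0.00139). MAFK, a small MAF protein that pairs with it on DNA, was at 2.56, 2.58 and 2.75 RPKM in DMSO and 4.22, 3.89 and 4.31 RPKM with Nutlin-3. It rose to 157% of DMSO (log2 fold change 0.63, adjusted p = 0.000683), and MAFG, of the same family, rose to 111% (adjusted p = 0.0216). The call of MAFG was lost in 6 alternatives, among them quantile normalization and those without DMSO replicate 1 or 3 or Nutlin-3 replicate 1 or 3 (adjusted p = 0.0528 to 0.0980). In the same libraries 0 of the 34 members rose (limma, with 0 on the recovered reads). Any link between NFE2L1 and the members was not tested. NFE2L1 is also controlled after translation, which these data do not measure.

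Of 4 genes for ubiquitin and its activating enzymes, 1 rose and 1 fell. The activating enzyme UBA1 rose to 113% (log2 fold change 0.17, limma adjusted p = 0.0161), though not without DMSO replicate 2 or Nutlin-3 replicate 2 (adjusted p = 0.0547 and 0.0580), and UBA6, another activating enzyme, fell to 86.3% (log2 fold change -0.19, adjusted p = 0.00918). Of 9 genes for the unfolding ATPase p97 and its cofactors, 3 rose and 1 fell. VCP, which encodes p97, was at 24.7, 23.3 and 24.5 RPKM in DMSO and 26.6, 28.0 and 28.3 RPKM with Nutlin-3, and rose to 114% with no overlap (adjusted p = 0.0127), though not without Nutlin-3 replicate 2. The cofactor UBXN1 rose to 115% (adjusted p = 0.0243), a call lost without DMSO replicate 1 or Nutlin-3 replicate 2 or 3 (adjusted p = 0.0504 to 0.0725). FAF1 fell to 68.1% (adjusted p = 0.0247), a call lost in 8 alternatives, among them each with 1 of the 6 libraries left out (adjusted p = 0.0504 to 0.104). Its mean of 0.117 RPKM was close to the 0.1 added before the log. On the recovered reads, 770 to 1492 per library, FAF1 passed as lower (log2 fold change -0.55, voom adjusted p = 1.5e-09).

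**Figure D4:**
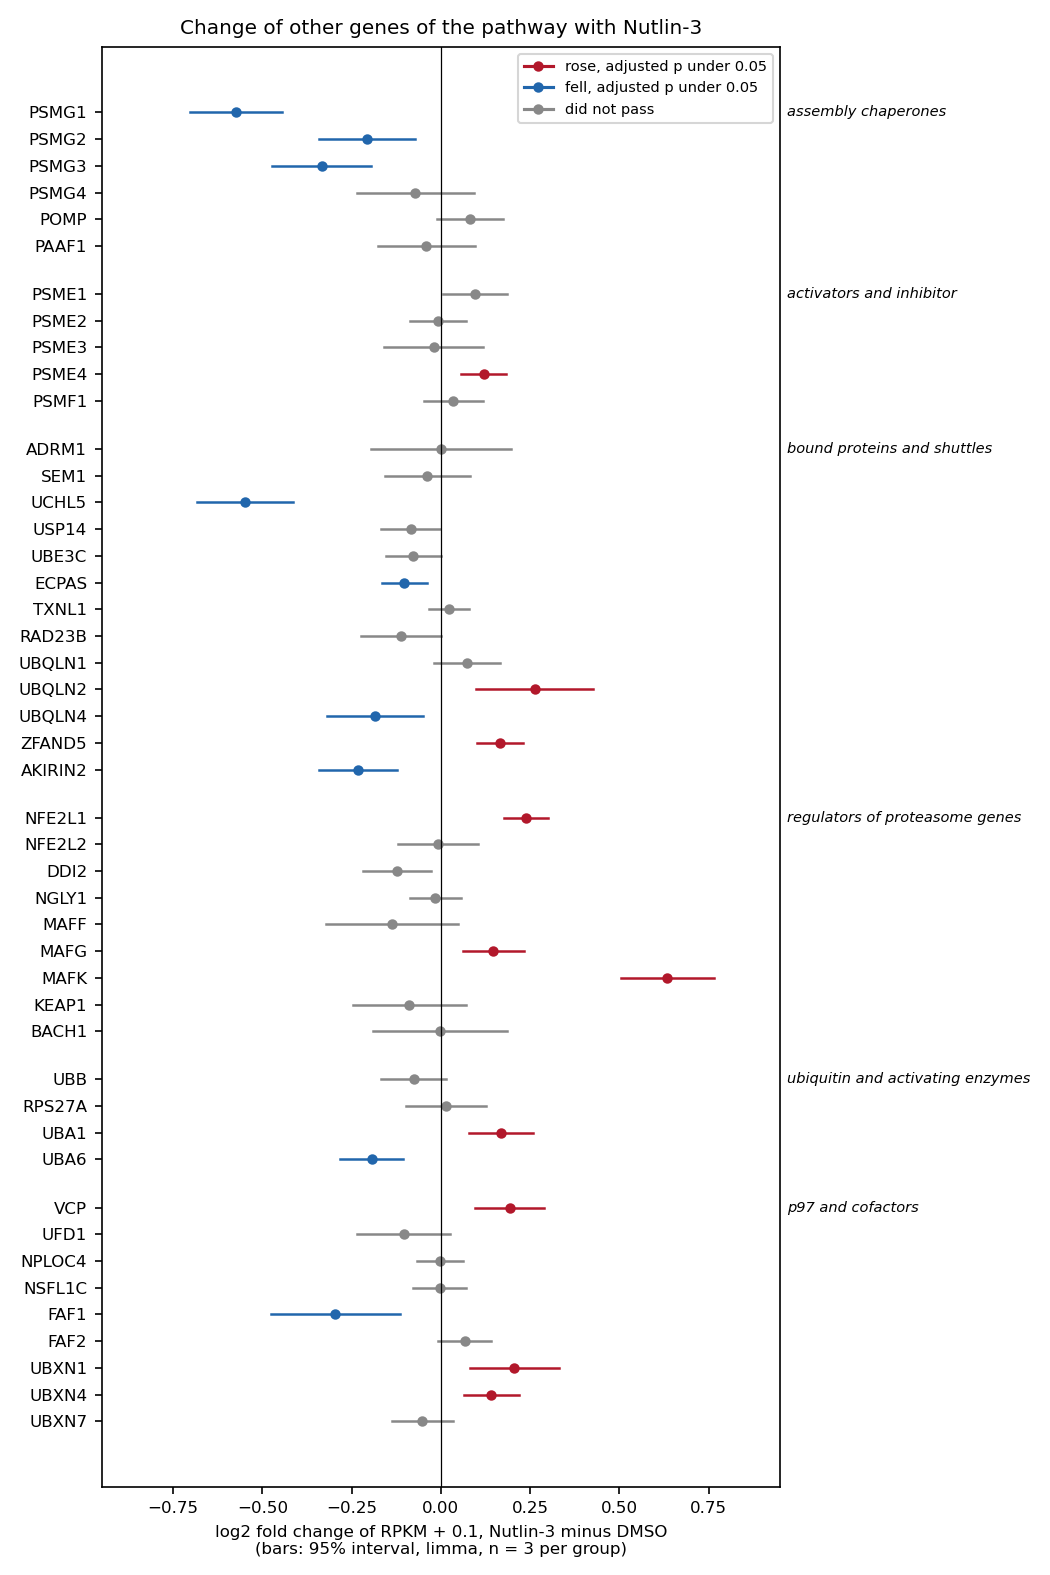
Log2 fold change of RPKM + 0.1 between 3 Nutlin-3 and 3 DMSO libraries (x axis) for the 46 genes of the 6 lists around the proteasome, with points for the estimate and bars for the 95% interval from limma, red for genes that rose and blue for genes that fell. PSMG1 (-0.57) and UCHL5 (-0.55) lie farthest to the left and MAFK (0.63) farthest to the right.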

How the data were processed

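The 6 RNA-seq libraries of RPE1 cells, 3 per group, were assigned by their labels. A stranded TruSeq mRNA kit was used, per the labels' protocols. The submitters' processing notes list TopHat2, CASAVA 1.8.2, edgeR and hg19 without roles. The read counter, the annotation and any use of strand were not given in the sources used here. RPKM, deposited by the authors with 1 column per library, were used as they stood, and 0 columns were left unmapped.

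Gene spans of GENCODE 29 turned 90.0% of low RPKM (up to 20 reads) into whole reads within 0.01 of a read, against 24.4% with exon length, so the authors' RPKM used the whole span. Reads of 27831 genes came from the span. For 8532 they came from ratios between libraries, and the true reads may be a whole multiple of them. The authors' library sizes were 29.8 to 42.3 M, and voom used them too. For the DMSO libraries they were 42.3, 29.8 and 32.4 M, against 40.3, 27.9 and 30.8 M recovered reads. For Nutlin-3 they were 31.6, 35.8 and 30.4 M, against 31.5, 36.2 and 30.9 M. Why the groups differ in this was not tested.

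The test was limma 3.58.1 (R 4.3.3; lmFit, then eBayes with trend; 1 term, the group) on log2(RPKM + 0.1), for the 19886 genes whose mean reached 0.1 RPKM, with Benjamini-Hochberg adjustment over all of them and a threshold of 0.05. Fold changes on this scale understate those of low genes, and percentages are ratios of mean RPKM. Alternatives were limma's voom on the recovered reads (mean of 10 reads or more), other pseudocounts, filters and scalings, a replicate block, and each library left out. The script was tested on simulated data. Members, lists and motifs were chosen with earlier results of these data known. Every member past the threshold is named, with a set list of catalytic, lid and assembly genes in any case, and up to 2 genes per direction of each other list, and some genes of those lists are not reported here. Of the IDs, 52338 had a symbol. Promoter coordinates are from RefSeq on GRCh38.p14 and not from the deposited table.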

Additional observations from a re-analysis of the deposited data

How the results depend on the processing

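PSMA4 and PSMC3 fell under every alternative run, and PSMD9 under all but the replicate block (adjusted p = 0.0607). PSMD12 did not pass in 3 alternatives, PSMC1 and PSMD11 in 6 each and PSMD5 in 10. The count of core members changed, 1, was 2 under quantile normalization, 4 with voom on the recovered reads and 1 to 3 with a library left out (3 without DMSO replicate 1). The count of cap members changed, 6, was 2 to 6 with a library left out (2 without Nutlin-3 replicate 1 or 2, 3 without DMSO replicate 1 or 3 or Nutlin-3 replicate 3), 8 with either higher minimum mean and under quantile normalization, and 9 under median-of-ratios scaling and with voom. PSMC5 and PSMD14 passed as lower in 5 alternatives each. The count of genes changed, 7803, was 4877 with a minimum mean of 1 RPKM, which tests fewer genes, and 5867 to 6670 with a library left out. Of the 46 pathway genes, 19 changed, and 11 to 15 with a library left out (11 without Nutlin-3 replicate 2). The core minus cap difference was 0.0327 to 0.0494 with a library left out.

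With the replicate number as a block, 1 of the core members changed, as did 1 of the cap members and 10 of the pathway genes, with 5520 genes changed in all. Deviations of libraries with the same number correlated at -0.034, -0.023 and -0.013, and no library correlated best with its own number. No effect shared by libraries of the same number was thus seen. These correlations cannot show whether such libraries were prepared together.

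Values near 0 changed sign. With a library left out, the log2 fold changes ran from -0.0495 to 0.00536 for PSMB1, -8.28e-05 to 0.132 for PSMB10, -0.0508 to 0.0252 for PSMC2, -0.0664 to 0.000633 for PSMD2, -0.0140 to 0.0714 for PSMD3, -0.0430 to 0.0308 for PSMD4, -0.0205 to 0.0779 for PSMD6, -0.0171 to 0.0345 for PSMD8 and -0.0471 to 0.0328 for PSME3, none of which passed. Quantile normalization gave -0.0306 for PSMB6, -0.0172 for PSMD3 and -0.0645 for PSMD8, and median-of-ratios scaling gave -0.0086 for PSMD8. The cause was not tested. With 3 libraries a group and a median SE of 0.047, members with a log2 fold change as low as -0.17 (PSMC5 and PSMC6) did not pass.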
